A study of Mus musculus with 12 samples.

Results

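The 10 genes described here serve glutathione synthesis and use and the wider defence of cells against oxidants. They were selected by name from the 16106 genes in the table of all libraries: Gclc, Gclm, Slc7a11, Gsr, Gpx1, Gpx4, Gstm1, Nqo1, Txnrd1 and Hmox1. All 10 were present and all 10 had a normalised read count above 1 in every one of the 12 libraries. The RNA came from cortex of C57BL/6 mouse embryos at embryonic day 14.5, dissociated and grown as neurospheres, which are floating spheres of neural stem and progenitor cells (NSPCs). At passage 3 the cultures received 10 μM pravastatin or an equal volume of vehicle (PBS, per the methods for RNA sequencing) for 24 hours. The 4 groups were male pravastatin, male vehicle, female pravastatin and female vehicle, with 3 libraries each, and no group carried a transgene or a mutation. Each culture came from a single embryo, and libraries of 1 sex that share a replicate number in the labels were taken as 1 culture, which makes 6 cultures with a pravastatin and a vehicle library each.

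Glutathione is a small peptide of glutamate, cysteine and glycine that keeps thiols reduced and feeds electrons to peroxidases and transferases. Cells import cystine, reduce it to cysteine, join it to glutamate and then to glycine, and return oxidised glutathione to its reduced form with NADPH. Many genes of this system are activated by NRF2, a transcription factor that KEAP1 holds at a low level in unstressed cells and that binds a DNA motif called the antioxidant response element. Pravastatin inhibits HMG-CoA reductase, the enzyme that makes mevalonate, and mevalonate derivatives are needed both for cholesterol and for a modified base of the transfer RNA that inserts selenocysteine into proteins such as GPX1, GPX4 and TXNRD1. As background to the treatment, 20 of 20 listed cholesterol synthesis enzymes were higher with pravastatin in both models described below.

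To show part of the sequence searched here for the NRF2 motif, the 250 bases before the transcription start are printed for Gclm, Txnrd1 and Slc7a11. They encode the modifier subunit of glutamate-cysteine ligase, cytosolic thioredoxin reductase and the cystine transporter. These genes were chosen because a motif match lies before the first 2 and because the third followed Gclm closely across libraries. The windows are RefSeq sequence of GRCm38.p6, read 5′ to 3′ on the strand of the gene, at chr3:122245307-122245556 on the plus strand for Gclm, chr10:82858956-82859205 on the plus strand for Txnrd1 and chr3:50443614-50443863 on the minus strand for Slc7a11. Capitals mark a match to the antioxidant response element, searched as TGACNNNGC on both strands, where N is any base. In both promoters the match lies on the opposite strand, so that the printed letters are its reverse complement.
Gclm: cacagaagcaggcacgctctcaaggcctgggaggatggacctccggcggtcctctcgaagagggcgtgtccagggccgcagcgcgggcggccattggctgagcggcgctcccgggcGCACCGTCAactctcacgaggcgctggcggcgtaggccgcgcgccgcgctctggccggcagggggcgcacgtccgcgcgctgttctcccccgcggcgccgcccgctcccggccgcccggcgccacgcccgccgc
Txnrd1: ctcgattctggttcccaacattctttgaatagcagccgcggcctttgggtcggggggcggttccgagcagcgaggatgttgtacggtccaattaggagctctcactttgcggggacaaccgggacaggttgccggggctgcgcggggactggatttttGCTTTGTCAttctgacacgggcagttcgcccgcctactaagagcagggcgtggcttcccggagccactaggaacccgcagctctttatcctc
Slc7a11: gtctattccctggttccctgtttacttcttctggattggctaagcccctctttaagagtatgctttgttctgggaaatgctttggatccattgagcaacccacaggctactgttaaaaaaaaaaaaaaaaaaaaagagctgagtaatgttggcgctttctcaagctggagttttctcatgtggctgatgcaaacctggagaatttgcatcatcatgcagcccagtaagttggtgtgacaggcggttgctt
The matches began 134 bases before the start of Gclm and 92 bases before a start of Txnrd1. Windows of 300 bases around the start were given for 7 of the 10 genes, not for Gclc, Gsr and Hmox1, and 2 of those 7 genes held a match, against 14.0% of 27025 genes. Some genes had several windows. Counted by window, 2 of 13 held a match, against 12.4% of 32851 windows over all genes. Only 1 of the windows of Txnrd1 did. No match to the sterol response element, searched as TCACNCCAC on both strands, was found in the 7 genes, and 1.44% of all genes held one. A match is a string of letters and was not tested as a binding site. Sequence outside these windows was not searched, so a gene without a match may hold one elsewhere.

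Before the comparisons, the cultures were checked for identity. All 14 listed markers of neural stem cells and radial glia exceeded 1 in every library. Of the markers of other cells, 1 of 11 for microglia, 4 of 7 for endothelial cells, 2 of 8 for mural cells and meningeal fibroblasts and 1 of 7 for erythroid cells were in the table, with highest values of 12.7, 3.29, 6.26 and 2.07. Neuronal and oligodendrocyte lineage markers were expressed, with 10 of 14 and 11 of 14 in the table, highest values of 990.1 and 959, and summed values of 896 to 1094 and 1760 to 2484 with pravastatin, against 819 to 1080 and 1578 to 2246 with vehicle. Female cultures 2 and 3 stood apart. The summed normalised read count of 12 astrocyte markers ran from 1889 to 3262 in their 4 libraries and from 1017 to 1446 in the other 8, and that of 7 cell cycle genes ran from 1103 to 2345 and from 2809 to 3304. In these bulk cultures, fewer cells of a type and less RNA per cell cannot be told apart. Library depth ran from 13353619 to 18422845 reads, and the least covered of the 10 genes, Nqo1, had 66 to 155 reads per library.

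The values are normalised read counts, that is, reads divided by the effective size of the library. Differences were tested with limma on log2 of the value plus 0.5 and are given as pravastatin minus vehicle with a standard error (SE), and calls required an adjusted p under 0.05 over all genes tested. In the model with sex as its only covariate, here the sex model, cultures count as independent libraries. In the culture model, each pravastatin library is compared with the vehicle library of its own culture. In both sexes together the sex model called 0 of the 10 genes higher and 0 lower, where 2.69% of 15093 genes tested were called higher and 0.311% lower. At an unadjusted p under 0.05 the sex model had 2 of the 10, Hmox1 and Gpx1, where 16.8% of all genes were under that limit, and edgeR, DESeq2 and limma-voom also called 0. The culture model called 0 of the 10 higher and 4 lower, namely Hmox1, Gstm1, Gsr and Gpx1, where 10.5% of genes were called higher and 8.13% lower. No difference of the 10 reached 1.5-fold. The median difference of the 10 genes was -0.13 against -0.0081 over all genes tested, and 8 of the 10 differences were negative.

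The models differ in whether the spread between cultures enters the error, and for most of the 10 genes that spread was the larger part. Of the sum of squares of log2 values over the 12 libraries, a median of 88.2% lay between cultures for the 10 genes and 69.9% for all genes tested. Treatment took a median of 6.66% for the 10 genes and 7.71% for all genes. In 8 of the 10 genes, more than 50% lay between cultures. The exceptions were Gpx1, with 22.7% between cultures and 52.0% by treatment, and Nqo1, with 42.9% and 32.3%. Slc7a11 had the highest share between cultures, 94.9%, and 1.19% by treatment.

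**Figure D1:**
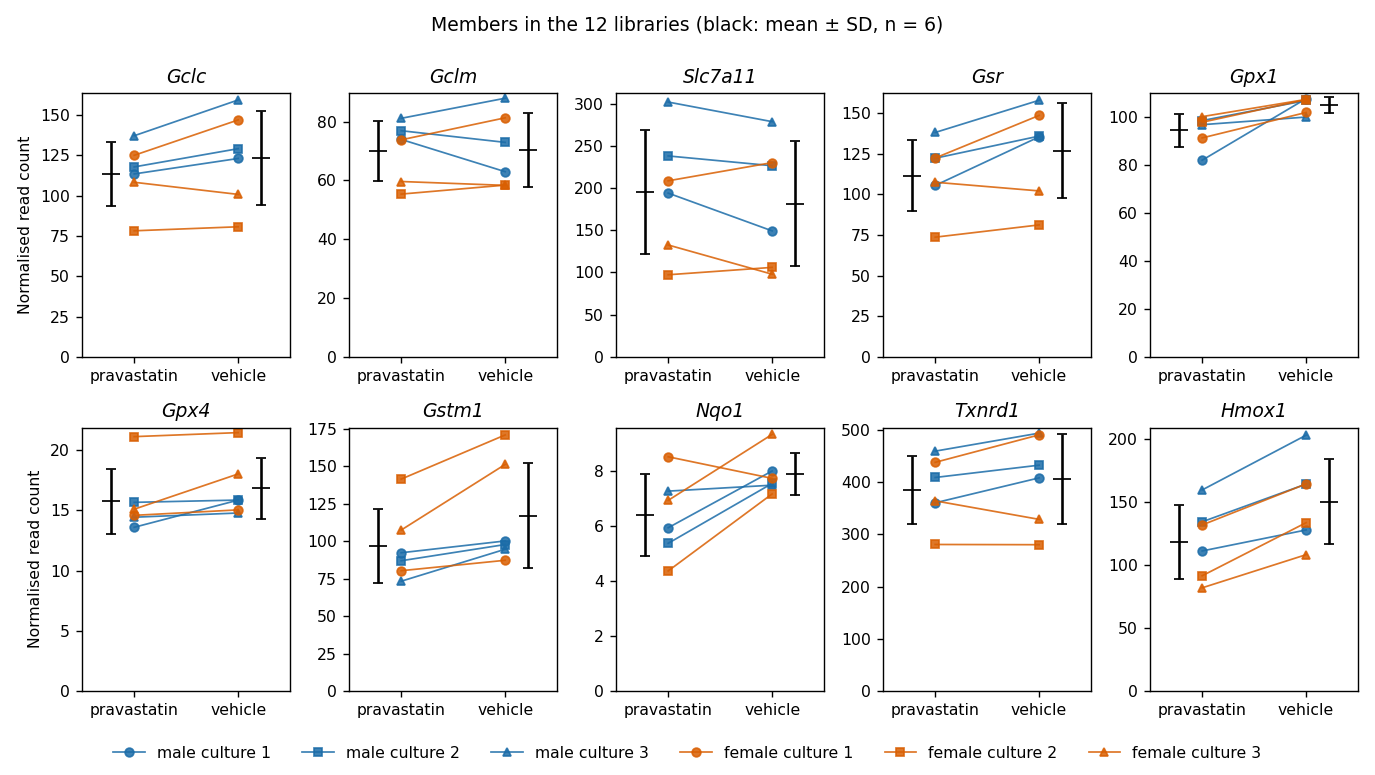
Normalised read count (y axis, from 0) of each of the 10 genes with pravastatin and with vehicle. Points are libraries, lines join the 2 libraries of a culture, male cultures are blue and female cultures orange, and black bars give the mean and SD of 6 libraries. The lines of Hmox1, Gstm1, Gpx1 and Gpx4 lie lower at the pravastatin end in 6 of 6 cultures, while every gene's pravastatin and vehicle ranges overlap.

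Among the genes that use or recycle glutathione, Gstm1, Gsr and Gpx1 fell with pravastatin in the culture model. Gstm1 encodes a mu-class glutathione S-transferase, which conjugates glutathione to electrophiles. Its normalised read count was lowest at 73.2, median 89.6 and highest at 141 in the 6 pravastatin libraries, against 87.2, 98.9 and 171 in the 6 vehicle libraries. The ranges overlapped, but the pravastatin library was the lower one in 6 of 6 cultures, by 0.12 to 0.49 on the log2 scale. The difference was -0.26 (SE 0.16, adjusted p = 0.458 in the sex model of limma; SE 0.05, adjusted p = 0.00623 in the culture model). The call held in the culture model when any 1 culture was left out, with adjusted p from 0.00633 to 0.0337. Of the 50-base words of Gstm1 transcripts, 18.9% also occur in other genes, mainly Gstm2-ps1, which averaged 26.3 ± 6.51 with pravastatin and 32.7 ± 9.25 with vehicle (SD, n = 6 each), so reads could be shared between the 2 genes.

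Gsr encodes glutathione reductase, which regenerates reduced glutathione with NADPH. Its count was lowest at 73.7, median 115 and highest at 138 with pravastatin, against 81.3, 136 and 158 with vehicle. The ranges overlapped over most of their width, and the pravastatin library was lower in 5 of 6 cultures, the exception being female culture 3 with a difference of 0.07. The difference over both sexes was -0.17 (SE 0.15, adjusted p = 0.600 in the sex model of limma; SE 0.05, adjusted p = 0.0370 in the culture model). That call was lost in the culture model when female culture 1 or 2 or any of the 3 male cultures was left out, with adjusted p from 0.0671 to 0.109, and held without female culture 3 (adjusted p = 0.00388). Where it was lost, the difference of Gsr was -0.14 to -0.18. Over all genes, those fits called 474 to 875 lower, against 1227 on all libraries and 1708 without female culture 3.

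Gpx1 encodes a selenium-dependent glutathione peroxidase that reduces hydrogen peroxide, and its level varied least of the 10 genes. It was lowest at 82.1, median 97.5 and highest at 100.3 with pravastatin, against 100.2, 107 and 108 with vehicle. Only the highest pravastatin library, female culture 3, reached the lowest vehicle library, male culture 3, and the pravastatin library was lower in 6 of 6 cultures. The difference was -0.16, a decrease of 10.3% (SE 0.06, adjusted p = 0.180 in the sex model of limma; SE 0.05, adjusted p = 0.0424 in the culture model). Male culture 1 had the largest fall, at -0.39, against -0.05 to -0.16 in the other cultures. Without male culture 1 the difference in the culture model was -0.11. The call was lost in the culture model without female culture 1 or 2 or any male culture, with adjusted p from 0.0633 to 0.0912, and held without female culture 3 (adjusted p = 0.0322). These are the same fits as for Gsr, with 474 to 875 of all genes lower where the call was lost and 1708 where it held. Gpx4 encodes the peroxidase that reduces lipid hydroperoxides in membranes and restrains ferroptosis, an iron-dependent form of cell death. Its count was lowest at 13.6, median 14.8 and highest at 21.1 with pravastatin, against 14.8, 15.9 and 21.5 with vehicle. It was lower in 6 of 6 cultures but by 0.02 to 0.25 on the log2 scale, and its difference of -0.10 passed in neither model (95% interval -0.24 to 0.05 in the culture model of limma, adjusted p = 0.325). In Gpx4, 34.7% of 50-base words also occur in the pseudogene Gpx4-ps2, so its level is uncertain.

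Being lower in 6 of 6 cultures held for Gpx1, Gpx4, Gstm1 and Hmox1, 4 of the 10 genes, and for 10.6% of all genes tested. None of the 10 was higher in 6 of 6, which held for 11.7% of genes. Pravastatin and vehicle ranges overlapped in all 10 genes, and did not overlap in 0.59% of genes that were lower and 2.25% that were higher.

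Hmox1 encodes inducible heme oxygenase, which breaks heme down to biliverdin, iron and carbon monoxide, and it had the largest difference of the 10 genes in this comparison. Its count was lowest at 81.8, median 121 and highest at 159 with pravastatin, against 108, 149 and 203 with vehicle. The ranges overlapped because cultures differed in level, and within cultures the pravastatin library was lower in 6 of 6. Those differences were -0.20, -0.29 and -0.35 in male cultures 1, 2 and 3, and -0.32, -0.54 and -0.40 in female cultures 1, 2 and 3. The combined difference was -0.35, a decrease of 21.5% (SE 0.15, adjusted p = 0.271 in the sex model of limma; SE 0.05, adjusted p = 0.000254 in the culture model). The call in the culture model held when any 1 culture was left out, with adjusted p from 0.000221 to 0.00223.

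The other NRF2-linked reductases passed in neither model. Nqo1 encodes a quinone reductase and is the most weakly expressed of the 10. Its count was lowest at 4.36, median 6.42 and highest at 8.50 with pravastatin, against 7.16, 7.63 and 9.32 with vehicle, and was lower with pravastatin in 5 of 6 cultures. Female culture 1 was the exception, at 8.50 with pravastatin and 7.72 with vehicle. The difference was -0.30 (adjusted p = 0.300 in the sex model of limma and 0.0606 in the culture model), and without female culture 1 the culture model gave -0.39 with adjusted p = 0.0302. That was the only call among 6 fits that each left out 1 culture, with adjusted p up to 0.168 in limma. Without female cultures 2 and 3 the culture model of limma gave adjusted p = 0.251. Txnrd1, which keeps thioredoxin reduced, was lowest at 281, median 386 and highest at 459 with pravastatin, against 280.1, 420.3 and 494 with vehicle. It was lower in 4 of 6 cultures, and its difference of -0.06 had a 95% interval of -0.17 to 0.04 in the culture model of limma (adjusted p = 0.388).

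**Figure D2:**
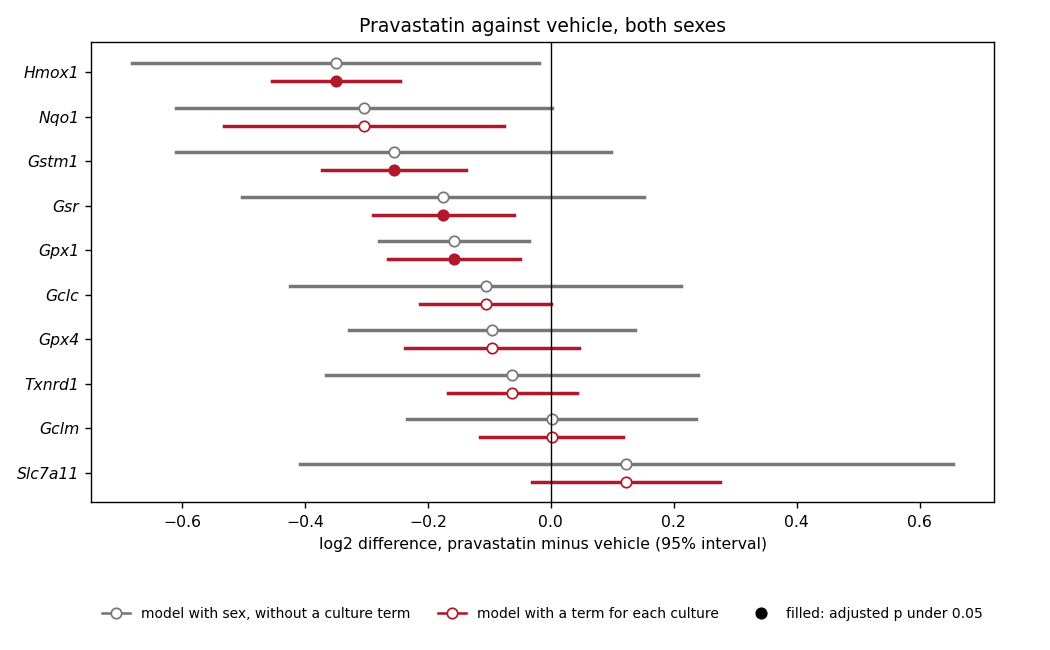
Log2 difference, pravastatin minus vehicle (x axis), of each gene with its 95% interval in the sex model (grey) and the culture model (red), over 12 libraries. Filled points have an adjusted p under 0.05; only the culture model has any, for Hmox1, Gstm1, Gsr and Gpx1, at -0.35, -0.26, -0.17 and -0.16.

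Gclc, Gclm and Slc7a11, the members in glutathione synthesis and cystine supply, did not pass in either model. Gclc encodes the catalytic subunit of glutamate-cysteine ligase, the rate-limiting enzyme of glutathione synthesis. It was lowest at 78.1, median 116 and highest at 137 with pravastatin, against 80.6, 126 and 159 with vehicle, and was lower in 5 of 6 cultures. Female culture 3 went the other way, by 0.10, and the difference over both sexes was -0.11 (adjusted p = 0.765 in the sex model of limma and 0.150 in the culture model, 0.0326 there without female culture 3). Of 6 fits that each left out 1 culture, only that one called Gclc, and adjusted p reached 0.352 in the others (limma). Gclm, the modifier subunit, was lowest at 55.3, median 73.9 and highest at 81.1 with pravastatin, against 58.3, 67.9 and 87.9 with vehicle. It was higher with pravastatin in 3 cultures and lower in 3, and its difference was 0.0010 (95% interval -0.12 to 0.12 in the culture model of limma, adjusted p = 0.992), or -0.06 on values rescaled to library totals (adjusted p = 0.420). Slc7a11 encodes the light chain of the cystine-glutamate exchanger. It was lowest at 97.2, median 201 and highest at 302 with pravastatin, against 97.9, 188 and 279 with vehicle, higher in 4 of 6 cultures. Its difference of 0.12 was positive and had a 95% interval of -0.03 to 0.28 in the culture model of limma (adjusted p = 0.244).

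Since female cultures 2 and 3 stood apart, the counts were repeated without their 4 libraries. The sex model then called 0 of the 10 genes (4 at an unadjusted p under 0.05, against 32.4% of all genes), where 17.0% of 14694 genes were called, and the culture model 0 higher and 5 lower, with Gclc (-0.17, adjusted p = 0.0209 in limma) beside Hmox1, Gstm1, Gsr and Gpx1, where 12.9% of genes were called lower and 13.0% higher. On values rescaled to library totals, the culture model called 6 lower, with Gclc and Nqo1 added, where 18.3% of genes were called lower and 7.55% higher. Markers also moved within cultures, in the culture model on all libraries, which called 10.5% of all genes higher and 8.13% lower. There, 4 of 7 cell cycle genes were lower, and 3 of 10 astrocyte markers tested were higher and 3 lower. Of the oligodendrocyte lineage and neuronal markers, 4 of 10 and 3 of 8 were higher and 0 lower. Their part in the differences of the 10 genes was not tested.

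Within males, limma called 0 of the 10 genes in the sex-specific comparison without a culture term (3 at an unadjusted p under 0.05, against 27.5% of all genes), where 10.4% of 15221 genes were called. With a term for culture it called 3 lower, Hmox1 (-0.28, adjusted p = 0.00829), Gsr (-0.23, adjusted p = 0.0262) and Gstm1 (-0.22, adjusted p = 0.0476), where 8.78% of genes were called lower. None of these 3 calls held in limma without male culture 2 (adjusted p from 0.122 to 0.1997) or male culture 3 (from 0.0608 to 0.364), and that of Gstm1 did not pass in edgeR with the culture term (adjusted p = 0.0635). Leaving out a culture drops 1 of only 3, so these fits are small. Over all genes, 488 were called lower without male culture 2 and 1171 without male culture 3, against 1336 with all 3. Within females, 0 were called without a culture term (0 at an unadjusted p under 0.05, against 2.84% of all genes), where 0.0724% of 15185 genes were called. With the culture term 1 was lower, Hmox1 (-0.42, adjusted p = 0.0146 in limma), where 0.184% of genes were called lower, and that call was lost in limma without female culture 2 (adjusted p = 0.233). That fit called 5 of 14682 genes lower, against 28 of 15185 with all 3 female cultures. edgeR, DESeq2 and limma-voom without a culture term called 0 of the 10 in either sex. These outcomes do not show that the sexes differed: the interaction of sex and treatment called 0 of the 10 genes in limma with or without the culture term (0 at an unadjusted p under 0.05), and 0.0% of 15765 genes. Over all genes, 0.875% were under that unadjusted limit without the culture term, and 1145 of 15765 with it. For Hmox1 the male minus female difference in response was 0.14 (95% interval -0.55 to 0.84 in limma without the culture term). That interval includes the spread between cultures. With the culture term the response was -0.28 (SE 0.067) in males and -0.42 (SE 0.063) in females.

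The levels of the members separated some cultures more than the treatments. All 4 libraries of female cultures 2 and 3 lay below the other 8 libraries for Gclc, Gclm and Slc7a11, 3 of the 10 genes, against 10.9% of genes tested, and above them for Gstm1, against 14.6%. Slc7a11 ran from 97.2 to 132 in these 4 libraries and from 149 to 302 in the other 8. Gclc ran from 78.1 to 108 against 113 to 159, and Gclm from 55.3 to 59.6 against 62.96 to 87.9. Thus Gclc, Gclm and Slc7a11 were all low in these cultures whether or not pravastatin was present. Gstm1 took the opposite course, at 107 to 171 against 73.2 to 100.1. Gsr and Txnrd1 were close to a separation, at 73.7 to 108 against 106 to 158 and at 280.1 to 364 against 360 to 494. These 2 cultures were singled out by other genes of the same libraries and are too few for a test, and the higher astrocyte marker sums and lower cell cycle sums given above fall in the same 4 libraries. Their part in these levels was not tested.

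**Figure D3:**
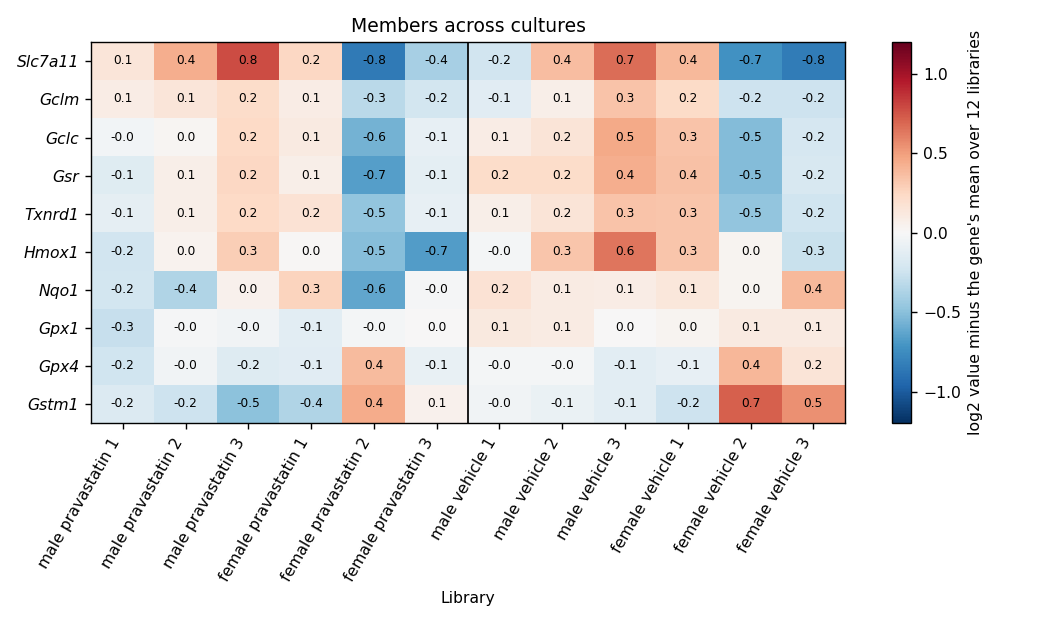
Log2 value of each gene (rows) minus its mean over the 12 libraries, in the 6 pravastatin libraries (left of the line) and the 6 vehicle libraries (right). Red is above and blue below the mean; Slc7a11 and Gclc are blue and Gstm1 is red in female cultures 2 and 3 with either treatment.

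Several members varied together across libraries. As a description over 12 libraries, which share 6 cultures, Pearson's r was 0.985 between Gclc and Txnrd1, 0.983 between Gclc and Gsr and 0.966 between Gclm and Slc7a11. Among all genes tested, the pattern most like Gclc was that of Mlec (0.989), followed by Txnrd1 and Gsr, both of the 10. The pattern most like Gclm was that of Slc7a11, and Srxn1, which encodes the sulfiredoxin that repairs peroxiredoxins, was among the 3 most like Slc7a11 (0.968). Over the 8 libraries without female cultures 2 and 3, r was 0.934 for Gclc with Txnrd1, 0.916 for Gclc with Gsr and 0.898 for Gclm with Slc7a11, so these pairs did not rest on those cultures alone. The negative relation of Gstm1 to Gclc did: r was -0.819 over 12 libraries and -0.07 over 8. Gstm1 was instead most like Nrarp (0.991), Hmox1 most like Sec14l5 (0.949), Gpx1 most like Rps9 (0.957), Gpx4 most like Morn2 (0.974), Gsr most like Txn-ps1 (0.984), Slc7a11 most like Ano3 (0.969), and Nqo1, with the weakest likeness, most like Fance (0.896).

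**Figure D4:**
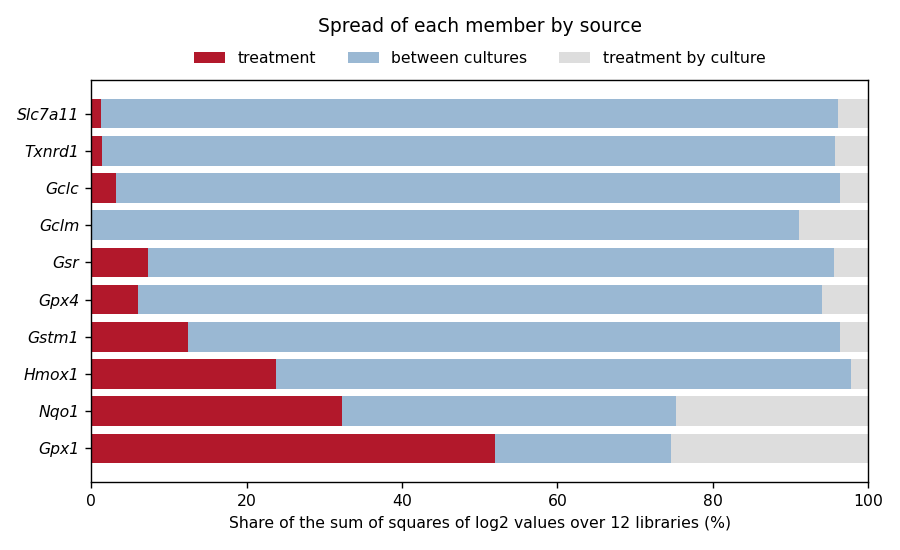
Share of each gene's sum of squares of log2 values over 12 libraries (x axis, percent) that lies between treatments (red), between cultures (blue) and in the treatment by culture remainder (grey). Blue fills more than 50% in 8 of 10 genes, and red is the largest part in Gpx1 alone, at 52.0%.

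Levels of different genes were compared per kilobase of exon. Hmox1 averaged 67.6 ± 16.6 normalised reads per kilobase with pravastatin and 85.7 ± 19.3 with vehicle (SD, n = 6 each). Gstm1 averaged 65.8 ± 16.8 and 79.4 ± 23.7, and Gpx1 65.6 ± 4.73 and 73.1 ± 2.32. These 3 genes led the order per kilobase under both treatments and did not differ from each other beyond their spread. Txnrd1 followed at 54.4 ± 9.11 with pravastatin and 57.2 ± 12.2 with vehicle, then Gsr at 40.5 ± 8.0 and 46.1 ± 10.6, and Gclc at 30.1 ± 5.29 and 32.7 ± 7.71. A lower group held Slc7a11 at 14.0 ± 5.27 and 13.02 ± 5.33, Gclm at 11.1 ± 1.63 and 11.2 ± 1.98 and Gpx4 at 9.14 ± 1.58 and 9.77 ± 1.47, which overlapped among themselves. Nqo1 was lowest, at 4.11 ± 0.951 with pravastatin and 5.06 ± 0.491 with vehicle. RNA of Gclc, the catalytic subunit of glutamate-cysteine ligase, was thus at a higher level per kilobase than that of Gclm, the modifier subunit, under both treatments. Exon length covers all annotated exons of a gene, whether or not they were expressed here. The level of Gpx4 stays uncertain because of the words shared with Gpx4-ps2.

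With vehicle alone, males were compared with females. Limma called 0 of the 10 genes (0 at an unadjusted p under 0.05, against 13.4% of all genes, and 0 by edgeR, DESeq2 and limma-voom), where 0.0332% of 15081 genes were called. The largest male minus female difference was that of Slc7a11, 0.66 (SE 0.37, adjusted p = 0.369 in limma). Its counts were 149, 226 and 279 in male vehicle libraries and 230, 106 and 97.9 in female vehicle libraries 1, 2 and 3, so the high female library lay within the male range and the other 2 below it. Without female vehicle library 1, limma called 6 of the 10 (Slc7a11, Gsr, Gclc and Txnrd1 higher in males, Gstm1 and Gpx4 lower), but 43.9% of all genes were then called too. That comparison sets female cultures 2 and 3 against the males, and sex and the state of these cultures cannot be told apart in it.

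To place the 10 genes in their pathway, 12 lists of related genes were read, with 132 genes in the table and 129 tested. The sex model called 12 of the 129 higher and 2 lower, where 2.69% and 0.311% of all genes were, and the culture model 29 higher and 19 lower, where 10.5% and 8.13% of all genes were. These shares over all genes also stand beside the counts of each list that follow. The 129 genes had a median difference of 0.0066 against -0.0081 over all genes. Gss, glutathione synthetase, which adds glycine in the last step of synthesis, fell with pravastatin, with a lowest count of 11.9 and a highest of 13.6 against 17.7 and 21.8 with vehicle. The groups did not overlap, and the difference was -0.58 (SE 0.07, adjusted p = 0.000258 in the sex model of limma). Of its exon bases, 1102 overlap Acss2 and antisense genes on the other strand, and Acss2 averaged 864 ± 184 with pravastatin and 143 ± 34.4 with vehicle (SD, n = 6 each). The kit marks strand and the methods give default parameters for HTSeq, but whether that setting suits the kit was not tested, so the Gss value is uncertain.

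Ggt7, a member of the gamma-glutamyltransferase family, was the highest of the related genes by difference, at 1.55 (SE 0.11, adjusted p = 3.29e-06 in the sex model of limma), and shares 197 exon bases with Acss2 on the other strand, so its difference and its rank are uncertain for the same reason. It averaged 72.4 ± 16.0 with pravastatin and 23.9 ± 1.76 with vehicle (SD, n = 6 each), without overlap. Chac2, which cleaves glutathione, rose by 0.72 on the log2 scale (adjusted p = 0.000665 in the sex model of limma). Slc3a2, the heavy chain that carries the SLC7A11 protein to the membrane, was at 0.10 and passed in neither model (adjusted p = 0.467 in the sex model of limma). Slc1a5, a neutral amino acid transporter of the same list, named after its value was seen, was at 1.23 and passed in the culture model alone (adjusted p = 5.4e-08 in limma). In that list of 15 genes tested, the sex model called 2 higher and 1 lower, and the culture model 6 higher and 2 lower.

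NADPH supply had 3 of 15 genes higher and 0 lower in the sex model, and 6 higher and 2 lower in the culture model. Idh1, the cytosolic isocitrate dehydrogenase that makes NADPH, rose by 0.79, Me1, malic enzyme, by 0.42 and Aldh1l2, a mitochondrial folate enzyme, by 0.37 on the log2 scale (adjusted p = 0.000521, 0.00819 and 0.0429 in the sex model of limma). The call of Aldh1l2 held in 1 of 12 fits of the sex model that left out 1 library, with adjusted p up to 0.122, and in 10 of 10 fits with a culture term. Among 10 ferroptosis regulators tested the sex model called 3 higher and 0 lower. Acsl4, which activates long polyunsaturated fatty acids, rose by 1.09, Lpcat3, which places them in phospholipids, by 0.51 and Vkorc1l1, a vitamin K epoxide reductase, by 0.33 (adjusted p = 0.00342, 0.00358 and 0.0108 in the sex model of limma). Txnrd3, which reduces thioredoxin and glutathione in testis, rose by 0.64 and was 1 of 20 thioredoxin, glutaredoxin and peroxiredoxin genes called higher in that model, with 0 lower (adjusted p = 0.0104 in limma). Of 12 other glutathione S-transferases tested, 0 were higher and 1 was lower, Gsto1, which fell by 0.28 (adjusted p = 0.0186 in the sex model of limma) and kept its call in 8 of 12 fits that left out 1 library. The culture model called 3 of these 12 lower.

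Selenium handling bears on GPX1, GPX4 and TXNRD1, which contain selenocysteine. Of 10 genes of selenoprotein synthesis and selenium uptake tested, the sex model called 1 higher, Lrp8, a receptor for selenoprotein P, which rose by 0.62 (adjusted p = 0.000199 in limma). Of 13 other selenoproteins it called 1 higher, Selenok, a protein of the endoplasmic reticulum, which rose by 0.59 (adjusted p = 0.000198 in limma). Trit1, which modifies the selenocysteine transfer RNA with a mevalonate-derived group, was at 0.05 (adjusted p = 0.791 in the sex model of limma).

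The genes for NRF2 and its inhibitor were close between treatments. Nfe2l2, which encodes NRF2, averaged 239 ± 36.6 with pravastatin and 248 ± 35.8 with vehicle, and Keap1 averaged 109 ± 9.53 and 108 ± 7.51 (SD, n = 6 each). Their differences were -0.05 and 0.01, and neither passed in the sex model or the culture model of limma. Nfe2l1, a relative of NRF2 that resides in the endoplasmic reticulum, rose by 0.42 (adjusted p = 0.000149 in the sex model of limma), 1 of 11 genes of its list called in that model. Of 17 further NRF2 targets, that model called 1 higher, Me1, and 0 lower, and the culture model 4 higher and 3 lower. Sod1, a superoxide dismutase, was at -0.07, Prdx1, a peroxiredoxin, at -0.09, and Srxn1 at 0.04, none of them called in either model. Cat, catalase, was at 0.30 and passed in the culture model alone (adjusted p = 0.00651 in limma). Gpx3, the secreted peroxidase, was at 0.20, Gstm5, a mu-class transferase, at 0.04 and Txnip, an inhibitor of thioredoxin, at 0.11, none of them called in either model. Across cultures, Nfe2l2 lay between 180 and 223 in the 4 libraries of female cultures 2 and 3, against 233 and 287 in the other 8, Srxn1 between 52.7 and 88.8 against 111 and 199, and Txnip between 153 and 167 against 39.9 and 72.2. Srxn1 was thus low where Slc7a11, Gclm and Gclc were low, and Txnip was high there. Over all genes tested, 10.9% lay below the other 8 libraries in these 4 and 14.6% above. Nfe2l2, Srxn1 and Txnip are given as examples, and the related genes that separated in this way are not counted here.

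**Figure D5:**
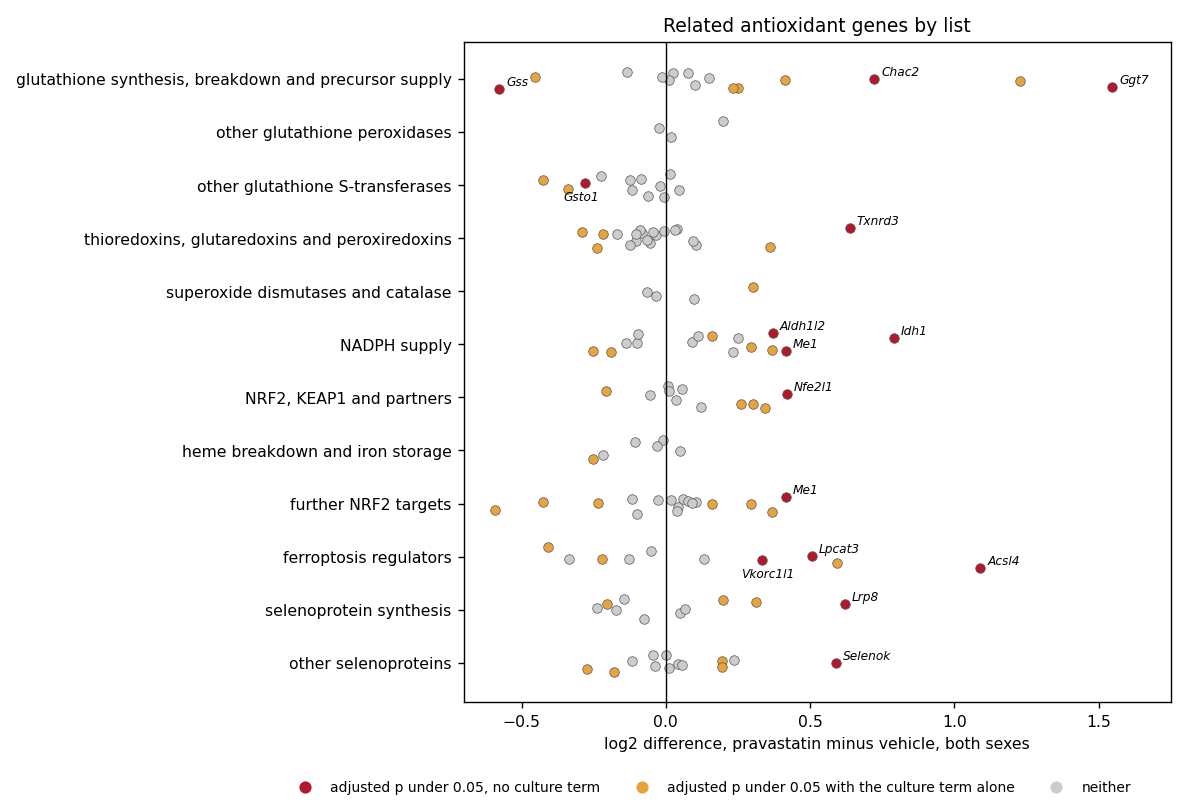
Log2 difference, pravastatin minus vehicle (x axis), of the related genes in 12 lists (rows), over both sexes. Red points were called in the sex model and carry the gene symbol, orange points in the culture model alone and grey points in neither; Gss and Gsto1 lie to the left of 0 and Ggt7, at 1.55, farthest to the right. Me1 is in 2 lists.

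In promoter windows of the related genes called higher in the sex model, 3 of 11 genes with a window held the antioxidant response element, and 0 of 2 genes called lower did. For the 129 genes in the culture model the counts were 7 of 27 and 1 of 16. These are read beside the 14.0% of all genes given above and were not tested.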

How the data were processed

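Neurosphere RNA was sequenced in 12 libraries made with a stranded total RNA kit. After technical replicates had been pooled, the authors mapped the reads to GRCm38 using TopHat2 2.1.1 and counted them per gene with HTSeq on annotation merged with Cufflinks assemblies. The deposited signal values are the authors' read counts per gene divided by an effective library size. All values (100.0%) came out as whole reads within 0.001 read, so count tests could be run as alternatives. The deposited tables also hold the authors' fold changes and p-values, which were not used. There were 0 unused columns of single samples.

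limma 3.58.1 (R 4.3.3; lmFit and eBayes with a trend) was fitted to log2(value + 0.5) for genes above 1 in at least 6 libraries, or 3 within a sex, with Benjamini-Hochberg adjustment over all genes tested. The interaction was tested over all 12 libraries for genes above 1 in at least 3, and males against females over the 6 vehicle libraries. A culture term was the paired alternative. After sex and treatment were removed, same-numbered libraries correlated at 0.428 to 0.871 in females and 0.179 to 0.303 in males, above 0.1 in every pair. Different-numbered libraries correlated at -0.838 to 0.425 in females and -0.196 to -0.0193 in males. Female pravastatin library 2 with female vehicle library 3 (0.425) came close to the same-numbered pair of female culture 3 (0.428). The correlations thus do not settle the pairing of that culture. The labels number the replicates of each sex but do not state the pairing. Because the labels do not say how cultures were handled, p-values cover the spread between these libraries. Other alternatives were edgeR 4.0.16, DESeq2 1.42.0, limma-voom, rescaling to library totals, pseudocounts of 1 and 0.1, no filter or a minimum of 5, no sex term and omission of single libraries. Omitting female cultures 2 and 3, omitting each culture in the culture model and rescaling in that model were added once the data had been seen. The script was tested on simulated data. Exon lengths are from GENCODE on GRCm38, which held 16072 of the gene identifiers, and 21 symbols turned into dates were restored from identifiers.

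The members and lists were chosen with earlier results of these data known. Genes named are the 10 members, the related genes called in both sexes in the sex model, 12 related genes given whatever their p, and the 3 genes most like each member in Pearson's r.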

Additional observations from a re-analysis of the deposited data

Results flagged for a closer look

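In 48 groups of 6 libraries (24 genes with pravastatin and with vehicle), 2 had a library far from the other 5, and chance gives about 1 in 20. Gpx4 was at 21.1 in female pravastatin library 2, where the nearest of the other pravastatin libraries was at 15.7, a gap of 0.725 of the group's range. The vehicle library of the same culture was also the highest of its group, at 21.5. Txnrd3 was at 7.33 in female vehicle library 2, where the nearest of the other vehicle libraries was at 10.3, a gap of 0.792 of the range. Both libraries belong to female culture 2, which stood apart in other genes.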

How the results depend on the processing

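Of 792 values of single genes under the alternatives, 738 kept their side of the threshold, 35 passed where the sex model did not and 19 no longer passed, and none of them or of the counts changed direction after a call. Without a culture term, no alternative called any of the 10 genes in both sexes or in females. In males, rescaling to library totals called 1 lower (Gstm1), and leaving out 1 library gave 0 to 1 (Gstm1 without pravastatin replicate 1, adjusted p = 0.0413, and Gsr without pravastatin replicate 3, adjusted p = 0.0405). With the replicate block, members called lower in both sexes were 4 in limma, 4 in edgeR, 5 without female cultures 2 and 3, 6 after rescaling, and 2 to 5 when each culture was left out. Over all genes, the same fits called 1227, 1333, 1892, 2768 and 474 to 1708 lower, of 14694 to 15093 tested. With the block in males they were 3 in limma, 2 in edgeR, 6 after rescaling and 0 to 4 without 1 culture, and in females 1, 1, 1 and 0 to 2. Over all genes, these fits called 1336, 1149, 2511 and 488 to 1577 lower in males, of 14782 to 15221 tested. In females they called 28, 34, 50 and 5 to 299 lower, of 14682 to 15185 tested. Males against females with vehicle gave 0 to 6 when 1 library was left out, with 6 only without female vehicle replicate 1, where 43.9% of all genes were called. Related genes called higher were 29 with the block in limma and in edgeR, 27 without female cultures 2 and 3, 31 with both, 24 with the block after rescaling and, with the block, 25, 26 and 31 without female culture 1, 2 or 3 and 25, 25 and 23 without male culture 1, 2 or 3. Related genes called lower were 5 in DESeq2, 4 after rescaling, 1 with no sex term, 1 to 5 without 1 library (5 without female vehicle replicate 1; 1 without male replicate 2 or 3 of either treatment), 14 without female cultures 2 and 3, 19 with the block in limma and in edgeR, 21 with both, 33 with the block after rescaling and, with the block, 15, 16 and 23 without female culture 1, 2 or 3 and 16, 10 and 12 without male culture 1, 2 or 3. Aldh1l2 lost its call in 14 alternatives and Gsto1 in 5. Over all genes, 406 higher and 47 lower became 311 and 142 after rescaling without the block, and 1583 and 1227 became 1140 and 2768 with it, as the median of all genes moved to -0.07. DESeq2 called 608 higher and 225 lower, and the fit without female cultures 2 and 3 called 1289 and 1214. The causes were not tested. Depth limits Nqo1 most, at 66 to 155 reads per library, and 3 libraries a group limit all comparisons.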
